A study of Mus musculus with 18 samples.

Results

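The comparison set livers of calorie-restricted (CR) SIRT1-/- mice, which have no functional copy of the gene, against livers of CR SIRT1+/- mice with 1 functional copy. It asked what the loss of the last SIRT1 allele changes in liver RNA when food is limited. The 6 libraries were all those labelled CR and homozygous or heterozygous knockout, 3 mice in each group, of 18 libraries in the series. Both groups were C57BL/6J mice placed on a 40% restricted diet at 2 to 5 months of age and killed at 13 to 16 months, and their livers were flash frozen. The null allele is carried by every cell of the animal, so liver-cell and systemic effects of the loss cannot be told apart. The other 4 groups of the series, the same 2 genotypes with free access to food (ad libitum, AL) and wild-type SIRT1+/+ mice on either diet, entered the same fit and the comparison of diets at the end.

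SIRT1 is an NAD-dependent deacetylase of histones, transcription factors and coactivators. In liver it is known for acting on PGC-1alpha, FOXO1, SREBP and clock proteins, which set glucose output, lipid synthesis and daily rhythm. Calorie restriction lowers insulin and IGF1 signalling and moves the liver toward the programme of fasting.

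RNA of 1 mouse was hybridized to 1 Illumina beadchip array, and a mouse is named here by its group and the replicate number of its label. Values are scaled log2 signals, with 0 at the mean of all probes of an array, and a difference of 1 reads as about 2-fold. A gene near -1 is at the level of an undetected probe. Between 10768 and 11250 of 25697 probes were detected in the 6 libraries, and 8950 genes were tested. The number of arrays limits the precision: the median standard error of a difference was 0.18 and the median 95% interval reached 0.38 to each side. The 10 hepatocyte markers averaged 5.68 to 6.49 in SIRT1-/- and 5.73 to 6.70 in SIRT1+/- livers, so both groups read as liver.

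The Sirt1 probe read 0.93, 1.69 and 1.43 in SIRT1-/- livers, against 1.37, 1.14 and 1.18 in SIRT1+/- livers. The groups overlapped, with a difference of 0.12 and a standard error of 0.21 (limma adjusted p = 0.984). An exact permutation test, two-sided, gave p = 0.6, and 0.1 is the smallest p that 3 against 3 allows. The sources used here do not place the probe inside or outside the deletion, and the level therefore tests no genotype. By RT-qPCR and Western blot of liver, the paper reports that SIRT1 mRNA and protein fell in proportion to genotype on both diets. The sex-linked transcripts went against a label. Xist, which coats the inactive X of female cells, was found in SIRT1-/- mice 2 and 3 and in SIRT1+/- mouse 2. The Y-linked Eif2s3y was detected in the other 3 mice and in none of these. The labels call every mouse male, while the methods give male and female. The groups thus held 2 of 3 and 1 of 3 livers with Xist. The split by Xist is given for some results, and a result given without it may still follow Xist. Within each Xist state 1 liver of one genotype stands against 2 of the other, so a split value rests in part on a single mouse.

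No gene passed the test. Of 8950 genes, 0 (0%) had a limma adjusted p under 0.05, and the smallest was 0.177 for Ppat. At an unadjusted p under 0.05, hereafter the nominal level, there were 456 genes, 5.09% of those tested, with 269 higher (3.01%) and 187 lower (2.09%) in SIRT1-/- livers. All values of one group lay wholly above those of the other for 978 genes (10.9%), 538 higher (6.01%) and 440 lower (4.92%) in SIRT1-/- livers. Differences beyond 1 were found for 95 genes, of which 22 higher and 31 lower reached the nominal level. A Z ratio, here the difference of mean z-scores divided by the SD of all such differences, was beyond 1.5 at the nominal level for 161 genes higher (1.8%) and 129 lower (1.44%). Set against CR SIRT1+/+ livers, limma called 0 genes for SIRT1-/- and 0 for SIRT1+/- livers, and 351 (3.92%) and 400 (4.47%) reached the nominal level. The genes described next stood out by size or p, and none of them is called changed. Such a difference need not set SIRT1-/- livers apart from wild-type ones.

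**Figure D1:**
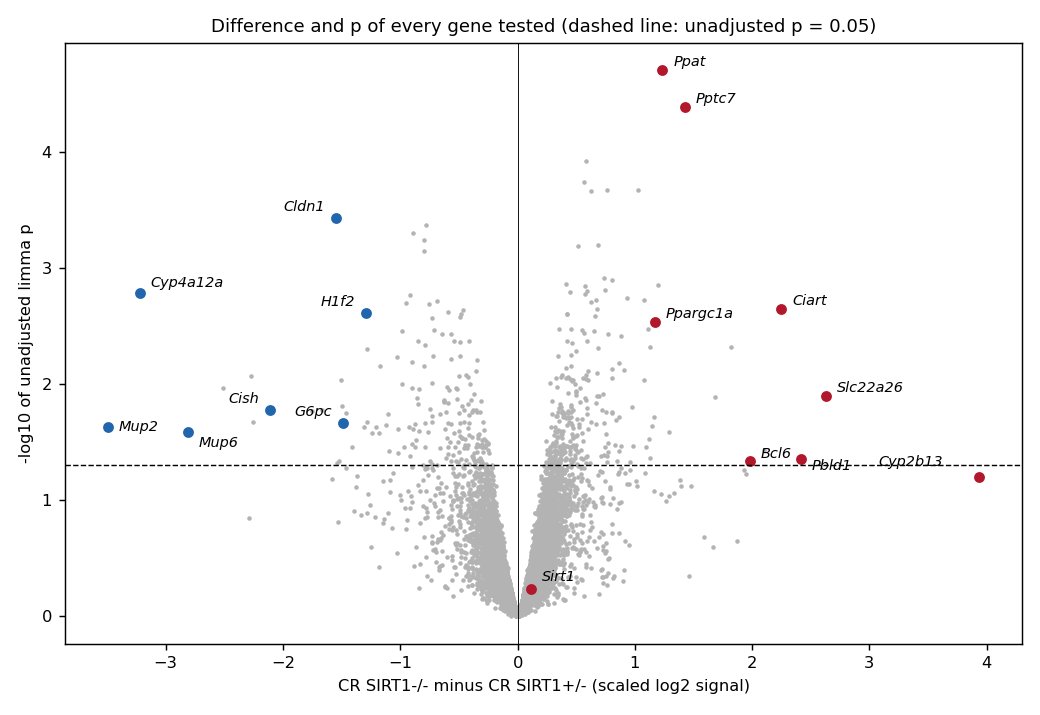
Each point is 1 of the 8950 genes tested, with the difference of CR SIRT1-/- minus CR SIRT1+/- livers in scaled log2 signal on the x axis and -log10 of the unadjusted limma p on the y axis. Ppat and Pptc7 stand highest, the widest differences belong to Cyp2b13, Mup2 and Cyp4a12a, and Sirt1 lies near 0.

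The 2 genes of smallest p were both higher without SIRT1. Ppat, the amidophosphoribosyltransferase that opens purine synthesis, read 1.81, 2.60 and 2.03 in SIRT1-/- livers, against 1.19, 0.78 and 0.77 in SIRT1+/- livers. The lowest SIRT1-/- value lay above the highest SIRT1+/- one (difference 1.23, standard error 0.20, adjusted p = 0.177). Pptc7, a mitochondrial protein phosphatase, read 4.41, 4.31 and 4.58 in SIRT1-/- livers, against 2.99, 3.19 and 2.84 in SIRT1+/- livers (difference 1.43, standard error 0.25, adjusted p = 0.185). Its 2 groups stood more than 1 apart with little spread within either. Fitted on these 6 libraries alone, limma called Pptc7 and the clock gene Ciart, each at an adjusted p of 0.0375, and no other gene.

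Other genes of small p that were higher in SIRT1-/- livers differed by less. Megf9, a transmembrane protein with EGF-like domains, read 2.18, 2.08 and 2.46 in SIRT1-/- livers, against 1.26, 1.25 and 1.14 in SIRT1+/- livers (difference 1.03, adjusted p = 0.277). Igf2, the fetal insulin-like growth factor, read 0.69, 0.96 and 0.70 in SIRT1-/- livers, against 0.32, 0.19 and 0.08 in SIRT1+/- livers (difference 0.59, adjusted p = 0.277). Neither overlapped between groups. CR SIRT1+/+ mice 1, 2 and 3 read 2.14, 2.41 and 1.34 for Megf9, with mice 1 and 2 near the SIRT1-/- livers. They read 0.41, 0.33 and 0.33 for Igf2, nearer the SIRT1+/- livers. Nnt encodes the mitochondrial transhydrogenase that makes NADPH from NADH, and C57BL/6J mice are known to carry a deletion in it. Its probe read -0.02, -0.22 and -0.06 in SIRT1-/- livers, all detected, against -0.72, -0.73 and -0.53 in SIRT1+/- livers, 1 of them detected (difference 0.56, adjusted p = 0.277). Klf15, a fasting- and glucocorticoid-responsive transcription factor of amino acid and glucose metabolism, read 0.26, 0.20 and 0.55 in SIRT1-/- livers, against -0.20, -0.19 and -0.66 in SIRT1+/- livers (difference 0.69, adjusted p = 0.445). Wnt2, a ligand that liver endothelium makes, read 0.41, 0.48 and -0.06 in SIRT1-/- livers and -1.25, -1.03 and -0.49 in SIRT1+/- livers, where 1 of 3 arrays detected it (difference 1.20, adjusted p = 0.56). The remaining 8 of the 15 higher genes of smallest p were Morc3 (0.76), Mzt1 (0.62), Card10 (0.52), Pde6c (0.73), Arrdc4 (0.81), Sertad2 (0.42), Zfp771 (0.57) and Cobll1 (0.74), given with their differences, and in all 8 the groups did not overlap. The choice by p fixes that separation in part, and it is no further result.

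**Figure D2:**
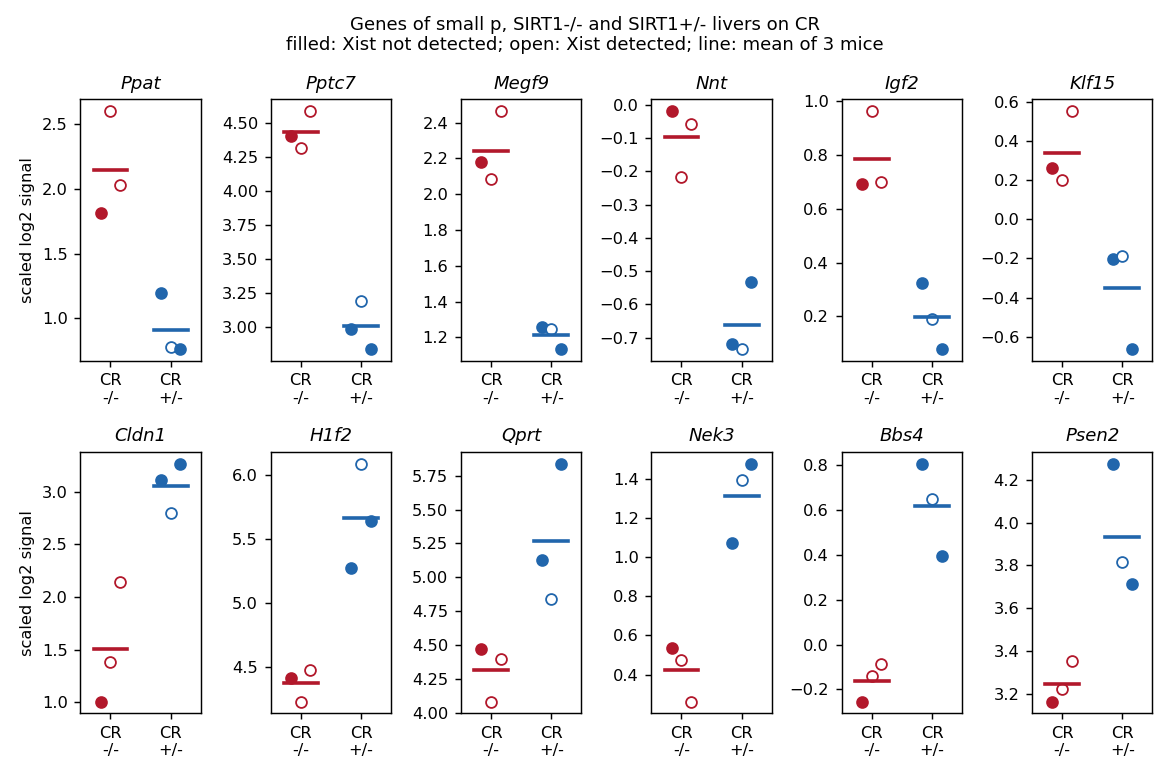
Scaled log2 signal (y axis, its own scale in each panel) of 12 genes of small p in each of 3 CR SIRT1-/- and 3 CR SIRT1+/- livers, with a line at the group mean; open circles are livers with Xist detected. In every panel the 2 groups do not overlap, for example Pptc7 at 4.31 to 4.58 in SIRT1-/- against 2.84 to 3.19 in SIRT1+/- livers.

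Among genes lower in SIRT1-/- livers, Cldn1 had the smallest p. Cldn1, a tight junction protein of the bile canaliculus, read 1.01, 1.38 and 2.14 in SIRT1-/- livers, against 3.11, 2.80 and 3.26 in SIRT1+/- livers (difference -1.55, standard error 0.34, adjusted p = 0.416). H1f2, a linker histone, read 4.42, 4.23 and 4.48 in SIRT1-/- livers, against 5.27, 6.09 and 5.64 in SIRT1+/- livers (difference -1.29, adjusted p = 0.56). The null livers were close together for H1f2 and spread for Cldn1, and neither gene overlapped. CR SIRT1+/+ mice 1, 2 and 3 read 4.255, 5.30 and 4.46 for H1f2, and 2.27, 3.07 and 2.76 for Cldn1. Qprt, the enzyme that feeds tryptophan breakdown into NAD synthesis, read 4.47, 4.08 and 4.40 in SIRT1-/- livers, against 5.13, 4.84 and 5.84 in SIRT1+/- livers (difference -0.95, adjusted p = 0.56). Psen2, a catalytic subunit of gamma-secretase, read 3.17, 3.22 and 3.36 in SIRT1-/- livers, against 4.27, 3.81 and 3.71 in SIRT1+/- livers (difference -0.68, adjusted p = 0.56). Tnfaip2, a TNF-induced gene, read 0.56, 0.61 and 0.23 in SIRT1-/- livers and 1.68, 0.89 and 1.22 in SIRT1+/- livers (difference -0.80, adjusted p = 0.445). Bbs4, a subunit of the ciliary BBSome, and Nek3, a NIMA-family kinase, differed by -0.78 and -0.89 without overlap. Adck5 (-0.92), Vmn1r65 (-0.75), Dcakd (-0.47), Fbxo36 (-0.48) and Ppfibp2 (-0.49) also did not overlap. Shh and Bdnf, a secreted morphogen and a neurotrophin, were detected in 0 of 3 SIRT1-/- and 2 of 3 SIRT1+/- livers. The means of these mice were thus at least 1.18-fold and at least 1.02-fold lower in SIRT1-/- livers. Such bounds, here and below, are set against the lowest detected signals of each array and make no allowance for the spread between mice. Cyp4a12a, the other gene of this group, overlapped between groups and is described with the sex-biased genes.

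The circadian clock genes were the list with most members of small p outside the sex-biased ones. The clock is a feedback loop in which CLOCK and BMAL1 switch on Per, Cry and Rev-erb genes through E-boxes (CACGTG), and their proteins switch it off again. Of 16 measured members, 4 were higher and 0 lower in SIRT1-/- livers at the nominal level (25%, against 5.09% of all genes), and 12 of 16 differences were above 0, with a median of 0.36 beside 0.01 over all genes. None passed adjustment. Ciart, a repressor of CLOCK and BMAL1, read 3.21, 2.72 and 3.23 in SIRT1-/- livers, against 0.59, 0.62 and 1.20 in SIRT1+/- livers. All 3 null livers stood above every SIRT1+/- liver (difference 2.25, standard error 0.61, adjusted p = 0.56). Per1, a core repressor of the loop, read 2.87, 3.10 and 3.25 in SIRT1-/- livers, against 1.85, 2.58 and 2.20 in SIRT1+/- livers (difference 0.86, adjusted p = 0.751). Usp2, a clock-driven deubiquitinase, read 4.60, 4.06 and 4.68 in SIRT1-/- livers, against 1.26, 3.17 and 3.05 in SIRT1+/- livers (difference 1.95, adjusted p = 0.954). Nfil3, which acts in opposite phase to the D-box activators, was the one non-overlapping member that was lower, at 2.70, 3.10 and 1.79 in SIRT1-/- livers against 3.35, 4.08 and 3.99 in SIRT1+/- livers (difference -1.27, adjusted p = 0.959). Cry2 (0.57) and Nr1d2 (0.59), named after their values were seen to complete the count of 4, did not overlap either. The hour of death of each mouse is not given in the sources used here, and its part in these values was not tested. Among livers without Xist the list had a median of 0.48 with 12 of 16 differences above 0, and among livers with Xist 0.19 with 8 of 16. Ciart differed by 2.31 without Xist and by 2.35 with it, and Usp2 by 2.44 and 1.20.

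The promoter of Ciart is shown because 3 CACGTG elements, in capitals, lie within 250 bases before its start site. It is GRCm38.p6 chr3:95882229-95882478, minus strand, from RefSeq, printed 5′ to 3′ up to the base before the start site.
Ciart: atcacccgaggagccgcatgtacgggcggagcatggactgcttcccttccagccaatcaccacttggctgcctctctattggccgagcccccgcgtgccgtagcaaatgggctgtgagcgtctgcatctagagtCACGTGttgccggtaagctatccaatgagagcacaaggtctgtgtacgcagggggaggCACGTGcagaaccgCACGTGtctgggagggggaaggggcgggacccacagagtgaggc
The element reads the same on both strands, and 6.02% of 32851 promoter windows of the same length hold at least 1. One of 2 Per1 promoters and the Klf15 promoter held it too, and those of Cry2, Nr1d2, Usp2 and Nfil3 did not in this window. Outside the clock list, a Bcl6 promoter also held 1 match, and those of Cish, Ppat, Pptc7 and Cldn1 held 0. A match is a description of letters and not a binding site, and the promoters searched were chosen after the values of their genes were seen.

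Of 13 measured genes of the growth hormone and IGF1 axis, 2 were higher and 1 lower in SIRT1-/- livers at the nominal level (23.1%, against 5.09% of all genes), with a median of -0.11 beside 0.01 over all genes. None passed adjustment, and without SIRT1+/- mouse 2 the count was 0 higher and 1 lower, with a median of 0.03. Growth hormone acts on liver through its receptor and STAT5, which switches on Igf1, Socs2 and Cish and represses Bcl6. Cish, a STAT5-induced inhibitor of that receptor's signal, read 1.14, 1.84 and 1.10 in SIRT1-/- livers, against 3.87, 3.55 and 2.99 in SIRT1+/- livers (difference -2.11, standard error 0.79, adjusted p = 0.879). Bcl6, a repressor that opposes STAT5 at shared sites, read 5.10, 4.07 and 3.73 in SIRT1-/- livers, against 1.86, 1.85 and 3.23 in SIRT1+/- livers (difference 1.98, standard error 0.91, adjusted p = 0.954). Both genes separated the groups, in opposite directions, and the differences with and without Xist were -2.08 and -2.29 for Cish, and 2.04 and 2.56 for Bcl6. Both also varied widely within other groups. CR SIRT1+/+ livers read 2.71, 1.95 and 3.43 for Cish and 2.93, 4.59 and 1.33 for Bcl6. AL SIRT1-/- livers ran from 0.14 to 2.72 for Cish and from 0.63 to 3.99 for Bcl6. Igfbp3, a carrier of IGF1, read 0.69, 0.97 and 1.87 in SIRT1-/- livers, against 0.49, 0.14 and 0.64 in SIRT1+/- livers (difference 0.76, adjusted p = 0.879). Its difference was 0.13 without Xist and 1.28 with it. Socs2, another STAT5-induced inhibitor, overlapped widely at 2.62, 3.78 and 3.93 in SIRT1-/- livers and 4.24, 5.39 and 2.55 in SIRT1+/- livers. Igf1 (difference -0.27) and the receptor gene Ghr (-0.24), named after their values were seen, overlapped as well.

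One of the 2 Bcl6 promoters is shown for its 3 matches to TTCNNNGAA, the letters that STAT factors prefer, in capitals. It is GRCm38.p6 chr16:23981284-23981533, minus strand, from RefSeq, again up to the base before the start site.
Bcl6: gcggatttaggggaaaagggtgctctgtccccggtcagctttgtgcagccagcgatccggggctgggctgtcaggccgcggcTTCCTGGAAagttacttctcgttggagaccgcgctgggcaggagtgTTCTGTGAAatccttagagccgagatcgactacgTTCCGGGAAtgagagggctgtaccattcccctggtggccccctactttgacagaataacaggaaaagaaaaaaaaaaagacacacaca
The motif reads alike on both strands, and 7.02% of the 32851 windows hold at least 1 match. The Cish window of the same length held 0, which says only that these letters are not in it.

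Of 14 measured gluconeogenic genes, 2 were higher and 1 lower in SIRT1-/- livers at the nominal level (21.4%, against 5.09% of all genes), with a median of 0.03, and none passed adjustment. Ppargc1a, the coactivator PGC-1alpha and a known substrate of SIRT1, read 3.12, 3.63 and 3.30 in SIRT1-/- livers, against 1.90, 2.49 and 2.15 in SIRT1+/- livers (difference 1.17, standard error 0.33, adjusted p = 0.591). Pck1, which makes phosphoenolpyruvate, read 1.27, 1.21 and 1.44 in SIRT1-/- livers, against 0.01, 1.19 and 0.31 in SIRT1+/- livers (difference 0.81, adjusted p = 0.879). G6pc, which releases free glucose in the last step of the same pathway, was on the other side: it read 3.42, 4.78 and 4.95 in SIRT1-/- livers, against 5.81, 5.72 and 6.08 in SIRT1+/- livers (difference -1.49, adjusted p = 0.905). None of the 3 overlapped, though Pck1 in SIRT1+/- mouse 2, at 1.19, came close to the lowest SIRT1-/- value of 1.21. Ppp1r3c, a glycogen-targeting subunit of protein phosphatase, differed by -0.79 with overlap. Without and with Xist, the differences were 1.10 and 0.98 for Ppargc1a, and 1.11 and 0.14 for Pck1. They were -2.525 and -0.86 for G6pc, and -1.11 and -0.013 for Ppp1r3c. Lpin1, a phosphatidate phosphatase and partner of PGC-1alpha, read 4.19, 3.71 and 4.47 in SIRT1-/- livers, against 3.33, 3.11 and 2.51 in SIRT1+/- livers (difference 1.14, adjusted p = 0.911). It was the one of 24 lipogenic genes, none lower, at the nominal level (4.17%). CR SIRT1+/+ mice 1, 2 and 3 read 3.28, 3.77 and 2.515 for Ppargc1a, and 3.90, 4.36 and 3.11 for Lpin1. For both genes mice 1 and 2 lay near the SIRT1-/- livers and mouse 3 near the SIRT1+/- livers. Their G6pc, at 6.09, 6.16 and 5.39, lay nearer the SIRT1+/- livers. Srebf1, the main activator of lipogenesis, read 2.04, 2.62 and 2.12 in SIRT1-/- livers, against 2.89, 2.99 and 2.89 in SIRT1+/- livers (difference -0.66, adjusted p = 0.978). Irs2, the insulin receptor substrate that the study examined, overlapped at 3.17, 2.90 and 2.56 in SIRT1-/- livers and 2.48, 3.29 and 3.45 in SIRT1+/- livers (difference -0.19, 95% interval -1.17 to 0.79).

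Glucocorticoid-responsive genes and metallothioneins had a median of 0.39, with 11 of 13 differences above 0 and 2 higher and 0 lower at the nominal level (15.4%, against 5.09% of all genes). These were Mt1 and Per1, which the clock list also holds. Mt1, a metal-binding stress protein, read 7.09, 6.15 and 7.29 in SIRT1-/- livers, against 3.95, 6.34 and 3.94 in SIRT1+/- livers (difference 2.10, adjusted p = 0.954). SIRT1+/- mouse 2, which carried Xist, was at the level of the null livers, and within Xist-detected livers the difference was 0.38 against 3.15 without Xist. Mt1 in SIRT1-/- mouse 3 lay close to the highest value of its array, 7.49. Fkbp5, a glucocorticoid-induced chaperone, showed the same exception, at 1.94, 2.36 and 2.81 in SIRT1-/- livers against 0.56, 2.53 and 1.17 in SIRT1+/- livers. Its difference was 1.075 without Xist and 0.056 with it.

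**Figure D3:**
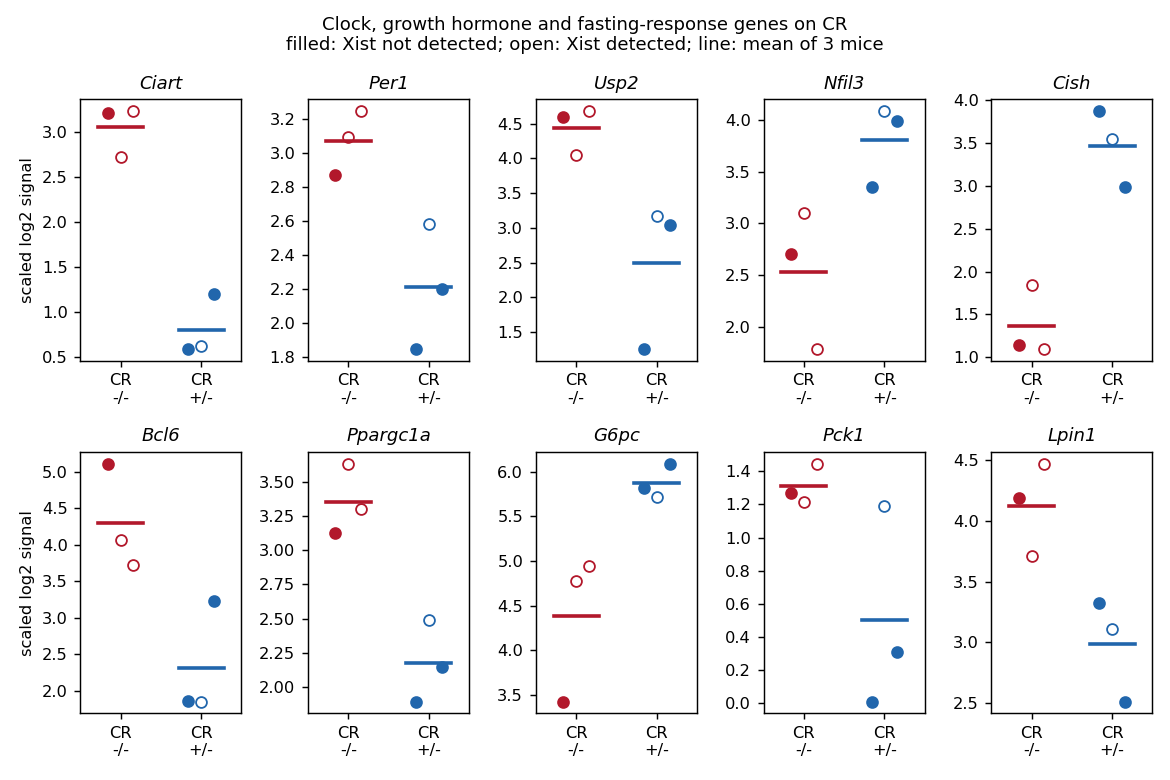
Scaled log2 signal (y axis, its own scale in each panel) of clock, growth hormone and fasting-response genes in 3 CR SIRT1-/- and 3 CR SIRT1+/- livers, with a line at the group mean and open circles for livers with Xist detected. Ciart, Bcl6, Ppargc1a and Lpin1 lie higher and Cish, Nfil3 and G6pc lower in SIRT1-/- livers, without overlap.

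The widest differences of all belonged to genes that differ between male and female liver, and here the genotype and Xist were not balanced. The pulsatile growth hormone of males keeps a male set of genes on and the steadier hormone of females a female set. Male-biased genes had a median difference of -0.90, with 18 of 21 below 0 and 0 higher and 9 lower at the nominal level (42.9%, against 5.09% of all genes). Female-biased genes had a median of 0.72, with 17 of 19 above 0, 2 higher and 1 lower at that level; Hao2 stands in both lists. Among livers without Xist, SIRT1-/- mouse 1 against SIRT1+/- mice 1 and 3, the medians were -1.05 and 0.69. Among livers with Xist, SIRT1-/- mice 2 and 3 against SIRT1+/- mouse 2, they were -0.11 and -0.24. With Xist as a covariate the counts were 0 higher and 8 lower of the 21, and 2 higher and 1 lower of the 19. Without SIRT1+/- mouse 2, 1 of 21 male-biased genes was higher and 14 lower, and 10 of 19 female-biased genes were higher and 0 lower. Of all 8950 genes, 581 reached the nominal level in that setting. That mouse was the only SIRT1+/- liver with Xist, so leaving it out widens the imbalance of Xist between the groups.

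Cyp4a12a, a male fatty acid hydroxylase, was detected in 0 of 3 SIRT1-/- livers, at -0.93, -1.06 and -1.18, against 3.92, -1.07 and 3.63 in SIRT1+/- livers. It was at least 6.89-fold lower in SIRT1-/- livers, taking the mean of all 3 SIRT1+/- livers, of which 2 detected it (limma adjusted p = 0.56). Without SIRT1+/- mouse 2, limma gave an adjusted p of 1.75e-08. Leaving that mouse out removes the only low SIRT1+/- value and the only SIRT1+/- liver with Xist, so this p is no further support. Mouse 1, the SIRT1-/- liver without Xist, was as low as the livers with Xist. Mup20, the male urinary pheromone darcin, was likewise detected in no SIRT1-/- liver, at -0.94, -1.56 and -1.36, against 2.29, -1.21 and 1.87 in SIRT1+/- livers, and was at least 3.04-fold lower (adjusted p = 0.782). Hsd3b5, a male steroid-metabolizing enzyme, read -0.68, -0.60 and -0.75 in SIRT1-/- livers and 4.80, -0.62 and 0.57 in SIRT1+/- livers (adjusted p = 0.905). Susd4, a complement regulator named after its values were seen, was at -0.72, -0.82 and -0.92 in SIRT1-/- livers and 2.00, -0.87 and 0.93 in SIRT1+/- livers. For each of these 4 genes the SIRT1-/- livers lay together at or near the undetected level (Hsd3b5 was detected in 1 of 3), and SIRT1+/- mice 1 and 3 stood above them. Wild-type livers on CR were low too: Cyp4a12a read -1.03, -0.62 and -1.34 in SIRT1+/+ livers, of which 2 of 3 had Xist. The value of -0.62 was that of SIRT1+/+ mouse 2, the liver without Xist. That liver read 0.27 for Mup20, -0.07 for Hsd3b5 and 0.05 for Susd4, below SIRT1+/- mice 1 and 3 for each gene.

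Other sex-biased genes were graded. Mup2, a major urinary protein, read 3.82, 0.90 and 1.29 in SIRT1-/- livers, against 6.79, 3.07 and 6.62 in SIRT1+/- livers (difference -3.49, standard error 1.39, adjusted p = 0.911). SIRT1-/- livers were lower than the heterozygous livers of the same Xist state, by 2.88 on average without Xist and 1.98 with it. Mup6 read 3.53, 1.30 and 2.01 in SIRT1-/- livers, against 6.36, 2.98 and 5.94 in SIRT1+/- livers (difference -2.81, adjusted p = 0.938), with differences of -2.62 and -1.33 within the Xist states. Probes of this family can bind more than 1 of its near-identical members. Of 5 measured Mup genes, 0 were higher and 3 lower at the nominal level (60%, against 5.09% of all genes), with a median of -2.27. Cyp2d9, a male steroid hydroxylase, read 5.71, 1.33 and 1.63 in SIRT1-/- livers and 6.97, 1.63 and 6.94 in SIRT1+/- livers, which followed Xist more than genotype. On the female side, Cyp2b13, a female P450, read 6.32, 5.16 and 5.25 in SIRT1-/- livers, against -1.09, 5.51 and 0.51 in SIRT1+/- livers (difference 3.93, standard error 1.96, adjusted p = 0.954). Slc22a26, an organic anion carrier, read 2.55, 3.23 and 3.82 in SIRT1-/- livers and -1.15, 3.58 and -0.72 in SIRT1+/- livers (adjusted p = 0.872), and Cux2, a female-specific transcription factor, read 1.30, 2.95 and 2.46 in SIRT1-/- livers and -0.88, 2.71 and -0.92 in SIRT1+/- livers (adjusted p = 0.954). SIRT1-/- mouse 1 had Eif2s3y and no Xist, and its values of these 3 genes lay far above those of both SIRT1+/- livers without Xist. This was not particular to the null liver: CR SIRT1+/+ mouse 2, also without Xist, read 3.35 for Cyp2b13 and 1.45 for Slc22a26. Its Cux2, at -0.79, was as low as in those SIRT1+/- livers. Restricted to libraries without Xist, limma called 8 genes, 3 higher and 5 lower, Cyp4a12a, Mup2, Mup6, Mup20, Slc22a26, Cux2, Cyp2b13 and Mrap, but that comparison holds 1 SIRT1-/- liver, whose spread is assumed to be that of the other groups.

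**Figure D4:**
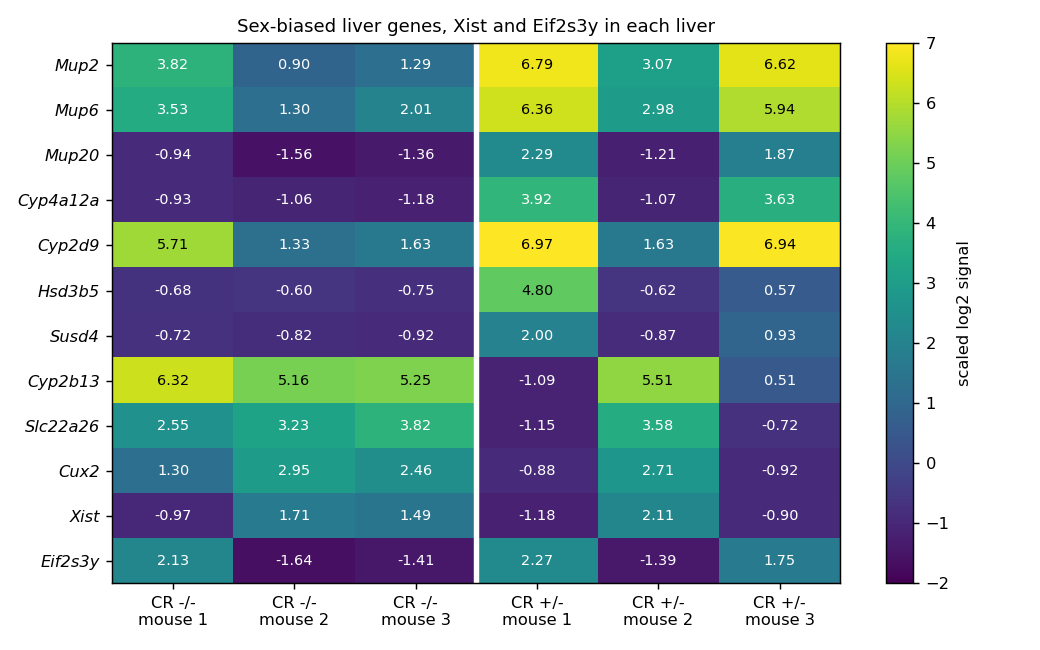
Scaled log2 signal, as colour and number, of male-biased genes (top 7 rows), female-biased genes (next 3), Xist and Eif2s3y in each CR SIRT1-/- and CR SIRT1+/- liver. SIRT1-/- mouse 1, without Xist, shows Cyp2b13 at 6.32 and Cyp4a12a at -0.93, whereas SIRT1+/- mice 1 and 3, also without Xist, show Cyp4a12a at 3.92 and 3.63.

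Lists of defence and stress genes held few members at the nominal level, which 5.09% of all genes reached, and none that passed adjustment. Of 35 complement and coagulation genes 0 were higher and 3 lower (8.57%, and 5 lower without SIRT1+/- mouse 2), with a median of -0.23: C8a and C8b, subunits of the membrane attack complex, and F11, coagulation factor XI, named after its values were seen. C8a read 1.80, 1.30 and 1.35 in SIRT1-/- livers, against 3.10, 2.14 and 2.56 in SIRT1+/- livers (difference -1.12, adjusted p = 0.911). C8b (-1.20) overlapped and F11 (-0.72) did not, and the male-biased list holds both C8a and C8b. Without and with Xist, the differences were -1.03 and -0.82 for C8a, and -1.385 and -0.28 for C8b. They were -0.81 and -0.41 for F11. Interferon-stimulated genes had 0 higher and 3 lower of 24 (12.5%, and 1 lower without SIRT1+/- mouse 2), Irgm2 (-0.86), Ifi47 (-0.74) and Ifi35 (-0.60), with a median of -0.06. Irgm2, an immunity-related GTPase, read 2.54, 2.61 and 2.13 in SIRT1-/- livers, against 3.25, 3.61 and 3.00 in SIRT1+/- livers (adjusted p = 0.879). Of 21 genes of protein folding in the endoplasmic reticulum, 0 were higher and 2 lower (9.52%, and 3 lower without SIRT1+/- mouse 2), with a median of -0.01. Xbp1, the transcription factor of the unfolded protein response, read 5.39, 5.06 and 5.20 in SIRT1-/- livers, against 6.17, 5.65 and 5.67 in SIRT1+/- livers (difference -0.61, adjusted p = 0.879). Chac1, a glutathione-degrading target of ATF4, read 2.52, 0.45 and 0.90 in SIRT1-/- livers and 2.38, 3.18 and 2.54 in SIRT1+/- livers, so its difference of -1.41 rested on SIRT1-/- mice 2 and 3. Asns, asparagine synthetase and another ATF4 target, read -0.78, -0.62 and -0.68 in SIRT1-/- livers and 1.40, -0.22 and 0.18 in SIRT1+/- livers (adjusted p = 0.954). Genes of NRF2, a transcription factor of the oxidant response, and of glutathione had 16 of 23 differences above 0, with a median of 0.25. At the nominal level 3 were higher and 0 lower (13%), and without SIRT1+/- mouse 2 there were 1 higher and 1 lower. Gstm2, a glutathione transferase, read 7.08, 6.30 and 6.18 in SIRT1-/- livers, against 5.51, 5.56 and 6.07 in SIRT1+/- livers (difference 0.81, adjusted p = 0.879), and Gsta2 differed by 0.88 without overlap.

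Lipid handling and the machinery of the cell showed little. Apobec1, which edits apolipoprotein B RNA, read 1.47, 1.33 and 1.31 in SIRT1-/- livers, against 2.10, 2.37 and 2.20 in SIRT1+/- livers (difference -0.85, standard error 0.25, adjusted p = 0.623). Cyp8b1, the sterol 12-hydroxylase of bile acid synthesis, read 4.91, 4.75 and 4.06 in SIRT1-/- livers, against 6.31, 5.00 and 6.56 in SIRT1+/- livers (difference -1.38, adjusted p = 0.955). No gene was at the nominal level among 22 PPAR alpha targets, 17 of mitochondrial fatty acid oxidation, 18 of cholesterol synthesis, 22 acute-phase proteins, 45 of oxidative phosphorylation or 26 proteasome subunits, and their medians ran between -0.16 and -0.02. Without SIRT1+/- mouse 2, 4 of the 22 PPAR alpha targets were higher at that level, with a median of 0.23, and 1 gene of fatty acid oxidation was higher and 1 lower. In that setting 581 of all 8950 genes reached the nominal level, with a median of 0.03 over all genes. It leaves out the only SIRT1+/- liver with Xist. PPAR alpha targets had a median of 0.24 with 15 of 22 differences above 0 among livers without Xist, and -0.36 with 0 of 22 among livers with it. Oxidative phosphorylation had 39 of 45 above 0 without Xist (median 0.20) and 2 of 45 with it (-0.15). Each of these medians stands beside -0.03 over all genes without Xist and 0.01 with it. Of all 8950 genes, 4068 differences were above 0 without Xist and 4680 with it. Each state has 1 liver on one side, SIRT1-/- mouse 1 without Xist and SIRT1+/- mouse 2 with it. The signs of a whole list can follow that 1 liver, and genes of a list are no replicates. The 36 cytosolic ribosomal proteins had none either, with 32 of 36 differences below 0 and a median of -0.14. Sirtuins and NAD metabolism had 1 higher and 1 lower of 18 at the nominal level (11.1%, against 5.09% of all genes), Nnt and Qprt, and a median of 0.01.

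No marker of another liver cell passed adjustment, and in bulk tissue fewer cells of a type and less RNA per cell cannot be told apart. Of 13 endothelial markers 2 were higher and 0 lower at the nominal level (15.4%, against 5.09% of all genes), with 5 of 13 differences below 0 and a median of 0.09. The count was 0 without SIRT1+/- mouse 2 and 1 with Xist as a covariate. Cdh5, the endothelial cadherin, read -0.10, 0.12 and 0.02 in SIRT1-/- livers and -0.38, -0.41 and -0.30 in SIRT1+/- livers (difference 0.38), and Lyve1, of sinusoidal and lymphatic endothelium, was detected in 3 of 3 SIRT1-/- and 0 of 3 SIRT1+/- livers (at least 1.17-fold higher). The summed level of the 13 ran from 71.2 to 95.7 in SIRT1-/- and from 82.0 to 83.9 in SIRT1+/- livers. Kupffer cell and macrophage markers had 10 of 11 differences above 0 and a median of 0.20, with sums of 27.5 to 37.1 in SIRT1-/- and 19.2 to 30.5 in SIRT1+/- livers, and none at the nominal level. The median was 0.11 with 6 of 11 above 0 among livers without Xist, and 0.61 with 11 of 11 among livers with it. Of 11 periportal markers 1 was higher (Pck1) and 1 lower (Cdh1) at the nominal level (18.2%), with a median of 0.04, and of 13 pericentral markers 1 was higher (Rhbg) and 0 lower (7.69%), with a median of 0.06. Cdh1, the epithelial cadherin, read -0.04, 0.16 and -0.01 in SIRT1-/- livers against 0.82, 1.71 and 0.27 in SIRT1+/- livers (difference -0.90, adjusted p = 0.818), and Rhbg, an ammonium transporter, differed by 0.46 without overlap. The part of cell composition in the differences above was not tested.

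**Figure D5:**
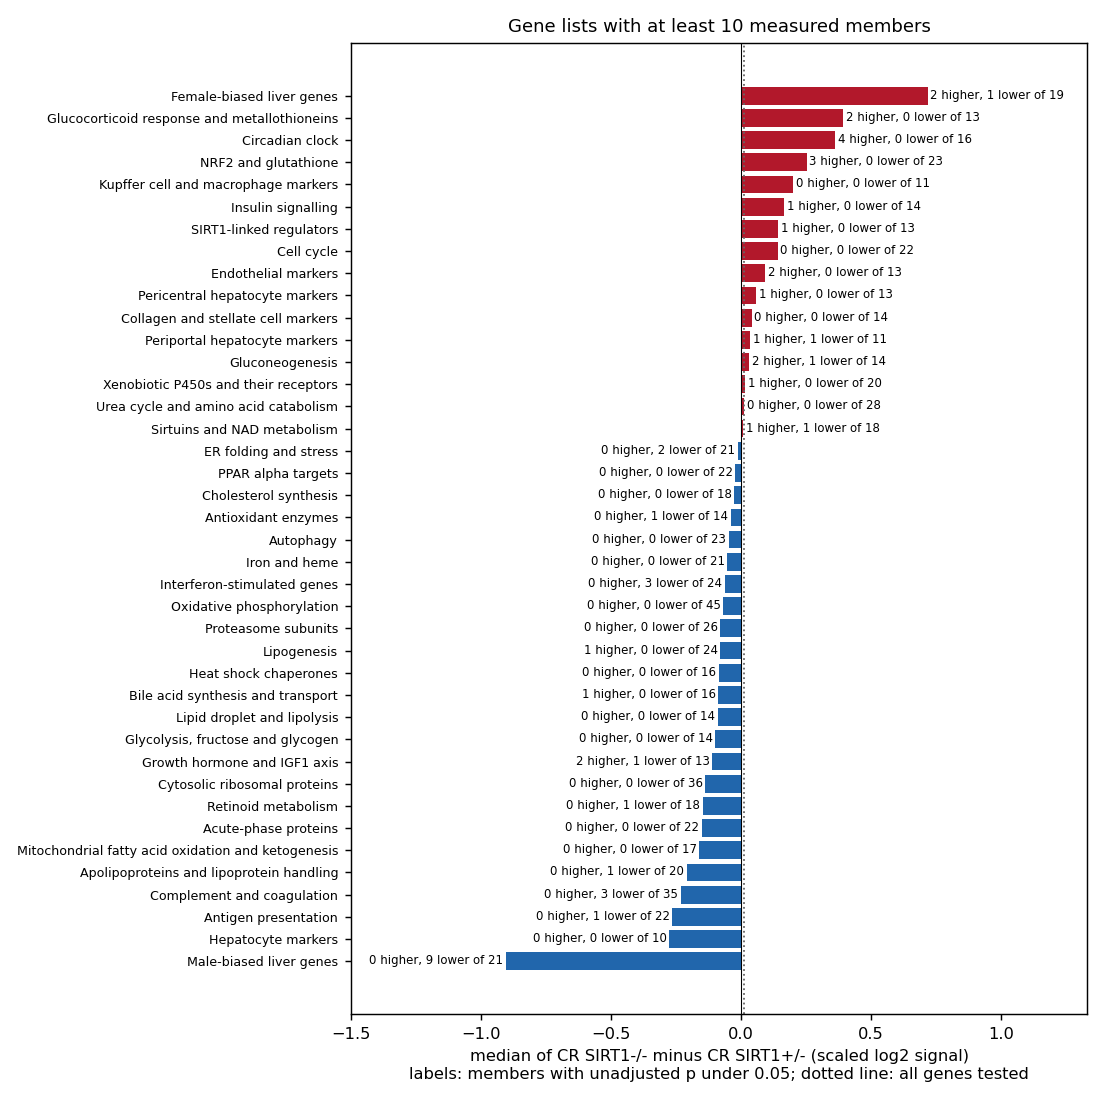
Bars give the median difference of CR SIRT1-/- minus CR SIRT1+/- livers (x axis, scaled log2 signal) over the measured members of each list of at least 10 genes, with the number of members higher and lower at the nominal level beside each bar. Male-biased genes lie lowest at -0.90 and female-biased genes highest at 0.72, beside 0.01 over all genes.

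Whether the genotype difference depended on diet was tested directly. The difference of SIRT1-/- minus SIRT1+/- in CR less the same in AL livers had an adjusted p under 0.05 for 0 of 8950 genes (0%), while 280 (3.13%) reached the nominal level. In AL livers alone, limma called 2 genes higher (0.0223%) and 20 lower (0.223%) in SIRT1-/- mice, but a call on one diet and none on the other is no test of a difference. The 5 genes of smallest p for the diet dependence were Sbspon, Aldh1a1, Elovl3, Imp4 and Fn3krp, and the first 4 were called in AL livers. Sbspon, a secreted matrix protein, read 0.02, -0.89, -0.62 and -0.77 in AL SIRT1-/- livers, against 1.22 and 1.75 in AL SIRT1+/- livers, and on CR it read -0.08, -0.57 and -0.43 in SIRT1-/- and -0.19, -0.55 and -0.64 in SIRT1+/- livers (diet dependence 2.15, standard error 0.33, adjusted p = 0.0731). Aldh1a1, a retinal dehydrogenase, was lower by 1.79 in AL SIRT1-/- livers (limma adjusted p = 6.66e-04) and differed by -0.10 on CR (diet dependence 1.69, adjusted p = 0.12). Elovl3, a male-biased fatty acid elongase, Imp4, a ribosome assembly factor, and Fn3krp, a kinase of glycated proteins, had diet dependences of 2.97, -0.84 and 1.15 (adjusted p from 0.234 to 0.388), with differences of -0.90, 0.02 and 0.49 on CR. Cyp4a12a read -0.81, -1.17, -1.24 and -1.04 in AL SIRT1-/- livers, of which 2 of 4 had Xist, and 7.01 and 7.39 in AL SIRT1+/- livers, of which 0 of 2 had it. For the genes described above the diet dependence was 1.79 for Ciart, -2.46 for Cish, 2.50 for Bcl6 and -2.34 for G6pc, each with an adjusted p of 0.9995, and 0.08 for Ppargc1a, which was 1.09 higher in AL SIRT1-/- livers.

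The genes beside Sirt1 were examined because genes close to it can be inherited with the targeted allele, a set chosen after results were seen. They were taken by gene order, and how far such inheritance reaches was not tested. Of 40 measured neighbours, 20 on each side, 4 were higher and 1 lower at the nominal level (12.5%, against 5.09% of all genes), and none passed adjustment. Pbld1, a phenazine biosynthesis-like protein, read 4.24, 4.13 and 4.04 in SIRT1-/- livers, against -1.01, 3.14 and 3.03 in SIRT1+/- livers (difference 2.41, standard error 1.10, adjusted p = 0.954). SIRT1+/- mouse 1 was at the undetected level, as were 2 of 3 CR SIRT1+/+ livers at -0.87 and -0.83, and the other read 3.88. Supv3l1, a mitochondrial RNA helicase, read 1.26, 1.35 and 1.26 in SIRT1-/- livers, against 0.26, 0.94 and 0.67 in SIRT1+/- livers (difference 0.67, adjusted p = 0.879).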

How the data were processed

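Liver RNA of each mouse was hybridized to 1 MouseRef-8 v2 array. For each of 25697 probes the authors deposited a detection p-value and a signal intensity, which BeadStudio 3.4.0 gave with no background subtracted. The authors also deposited a score, the z-transformed log intensity, from which z-scores computed here differ by at most 5.0e-10. The 23978 probes with 1 symbol (16593 symbols) were used, and 1719 without one were left out. Log2 signals were z-scaled per array and multiplied by the mean SD (1.84) to return to log2 units. This scaling fixes the centre and spread of each array, so a change in total RNA would not show. Probes were kept when 2 or more of 18 libraries detected them (detection p below 0.05), and the brightest stood for its symbol, giving 8950 genes.

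Group means of 6 groups were fitted in limma 3.58.1 (R 4.3.3) with moderated variance, two-sided, with Benjamini-Hochberg adjustment over the 8950 genes and calls at adjusted p below 0.05. The code was tested on simulated data. P-values measure the spread between mice.

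Genes named are Sirt1, sex-linked transcripts, Irs2, the 15 of smallest p in each direction, up to 4 members per list with the widest difference, and 5 for the diet dependence; others are marked. The members and lists were chosen with earlier results of these data known. Of the listed symbols, 7 matched through an older name. The alternatives tried were quantile normalization, neqc with an offset of 16, z-scores as deposited, other detection filters, probe means, the compared groups only, array weights, a replicate block, Xist as covariate or split, a trended robust prior, other Z ratio limits, and leaving out each library. Figures used matplotlib 3.10.9, tables pandas 2.3.3.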

Additional observations from a re-analysis of the deposited data

How the results depend on the processing

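Between CR SIRT1-/- and CR SIRT1+/- livers, 0 genes were called, and the alternatives that called any were the fit of the 2 groups alone, with 2 (Ciart and Pptc7), and libraries without Xist, with 8. Leaving out 1 library gave 0 to 6 calls: 6 without SIRT1+/- mouse 2 (Cyp4a12a, Slc22a26, Susd4, Pde6c, Gm4956 and Cbr1), 1 without CR SIRT1+/+ mouse 3 (Megf9) and 1 without AL SIRT1-/- mouse 2 (Pptc7). With SIRT1+/- mouse 2 left out, Xist is found only in SIRT1-/- livers of the groups compared, so those 6 calls may follow Xist. The dependence on diet gave 0 calls, against 2 with array weights, 2 with Xist as a covariate, 1 with a trended robust prior, and 0 to 5 on leaving out 1 library, with 5 without CR SIRT1+/- mouse 1. The Z ratio with a limit of 2.0 gave 182 genes in place of 290. The difference of Sirt1, 0.12, ran from -0.050 to 0.33 on leaving out 1 library and was -0.35 without Xist. With Xist as a covariate, Xist itself was at -0.27 and Eif2s3y at 1.56e-04. Among libraries with Xist, Xist was at -0.51, Cyp2b13 at -0.30, Slc22a26 at -0.052, Cux2 at -0.013 and Susd4 at 4.9e-04. Among those without, Eif2s3y was at 0.12, Irs2 at 0.21 and Chac1 at 0.063. Socs2 ran from -1.37 to 0.046 on leaving out 1 library, with its highest value without SIRT1+/- mouse 2. The causes were not tested. The replicate numbers did not pair the mice: same-numbered livers had deviations correlated at 0.02, 0.29 and -0.12. With a replicate block 0 genes were called, as without it, and 0 for the dependence on diet.

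The groups held 3 mice each, with Xist in 2 SIRT1-/- and 1 SIRT1+/- liver. The median interval of 0.38 is that of 1 gene without adjustment, and it is no limit of detection for the calls. Far wider differences went uncalled, such as Ciart at 2.25 and Mup2 at -3.49 (limma adjusted p = 0.56 and 0.911). Genes near the undetected level or the top of an array can read less than their full difference.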
